A study of Mus musculus with 10 samples.

Results

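A set of 10 genes known as products of mature fat cells were followed in RNA from whole mouse ovaries: Adipoq, Lep, Cfd, Retn, Cidec, Car3, Pck1, Fabp4, Plin1 and Plin4. All 10 were found by gene symbol among the 24306 genes of the deposited tables, 1 row each. The study asked whether retinoic acid signalling is needed in somatic cells of the ovary. Its 10 polyA libraries came from untreated 6-week-old females in conventional housing (strain C57BL/6; 129 Mixed), with RNA taken from whole gonads in Trizol. Rar mutants (n = 3) carried Sf1-Cre+ and were Rara f/f, Rarb f/f and also Rarg f/f, with both Dmrt1 alleles intact, and Dmrt1 het Rar mutants (n = 2) had the same receptor alleles and Cre with Dmrt1 fl/+. Controls (n = 5) were also homozygous for the 3 floxed receptor genes, Sf1-Cre- and Dmrt1 +/+, so all 3 groups share the floxed alleles. Sf1-Cre follows the promoter of Nr5a1 and acts in somatic cells of the gonad. The series' text speaks of 5 replicates in each of 2 genotypes, and the pooled comparison below sets all 5 Rar-deleted ovaries against the controls.

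The mouse ovary lies in a bursa beside a depot of white fat, and remnants of that fat can stay on a dissected gonad. White adipocytes keep triglyceride in 1 large droplet coated by perilipins. They release hormones, called adipokines, into the blood. Several genes of this kind are not limited to fat: Fabp4 is also made by endothelial cells and macrophages, Pck1 by liver and kidney, Car3 by muscle and liver, and lipid droplets are a normal part of steroid-making cells of the ovary.

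Total counts ran from 21064856 to 25920131 per library, and a library's 0 allows up to 3 counts, or 0.118 to 0.137 CPM, for counting error only. CPM, a count scaled to its library's total and TMM factor, was used to compare libraries, and the deposited FPKM, which is per transcript length, to compare genes. The targeted genes check the labels only in part: Rarg had 14.9 to 22.0 CPM in the 5 Rar-deleted ovaries and 24.3 to 32.7 CPM in controls, with no overlap, while Rara (20.4 to 30.8 CPM in Rar-deleted ovaries, against 20.1 to 37.1 CPM in controls) and Rarb (2.10 to 2.90 CPM in Rar-deleted ovaries, against 2.41 to 4.58 CPM in controls) overlapped. Dmrt1 had 5 counts in Dmrt1 het Rar mutant 2 and 0 elsewhere. Whole-gene counts cannot show loss of a floxed exon alone. The 10 defining ovary markers summed to 2526 to 9794 CPM in Rar-deleted ovaries and 2564 to 5153 CPM in controls.

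The sequences just before the start sites were read first, since coordinated genes of one cell type can share control elements. RefSeq promoters (GRCm38.p6) were matched for 8 of the 10 genes, all but Fabp4 and Car3. Adipoq and Plin4 are shown because their levels part company below, and Lep and Pck1 because they hold a searched motif. Each line gives the 200 bases before the start site, 5′ to 3′ on the gene's strand, in the order Adipoq (chr16:23146336-23146535, plus strand), Plin4 (chr17:56109783-56109982, minus strand), Lep (chr6:29060021-29060220, plus strand) and Pck1 (chr2:173152873-173153072, plus strand), with matches to TATAA, TTGCGCAA and ACGTCA in capitals.
Adipoq: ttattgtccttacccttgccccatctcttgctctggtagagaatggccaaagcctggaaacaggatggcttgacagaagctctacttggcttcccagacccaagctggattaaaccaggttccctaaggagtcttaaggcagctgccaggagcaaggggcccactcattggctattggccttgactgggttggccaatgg
Plin4: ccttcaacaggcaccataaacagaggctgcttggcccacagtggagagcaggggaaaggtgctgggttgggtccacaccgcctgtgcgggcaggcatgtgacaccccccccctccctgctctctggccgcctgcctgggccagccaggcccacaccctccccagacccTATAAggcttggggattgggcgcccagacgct
Lep: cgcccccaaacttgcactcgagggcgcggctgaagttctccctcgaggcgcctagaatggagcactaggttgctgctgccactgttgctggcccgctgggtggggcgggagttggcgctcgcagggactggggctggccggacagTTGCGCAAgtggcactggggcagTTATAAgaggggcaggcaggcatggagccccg
Pck1: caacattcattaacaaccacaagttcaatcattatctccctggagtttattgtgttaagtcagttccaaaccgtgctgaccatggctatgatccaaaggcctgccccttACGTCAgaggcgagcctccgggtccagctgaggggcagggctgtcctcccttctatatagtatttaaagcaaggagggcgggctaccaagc

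Over 250 bases before the start, read on both strands, the palindrome TTGCGCAA known to be bound by C/EBP factors was in Lep alone among the 8 genes, and in 0.164% of 32851 promoters. The half-site ACGTCA, known to be bound by cyclic AMP responsive factors, was in Pck1 alone of the 8, and in 6.47% of all promoters. TATAA was in Lep and Plin4, and in 22.8% of all promoters. None of the 8 held the nuclear receptor half-site AGGTCA (14% of all promoters), whose last letters are also those of ACGTCA, or the E-box CACGTG (6.02% of all). These letters describe the windows and say nothing of binding in the ovary. Between Adipoq and Plin4, TATAA was the one searched motif that differed.

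The 10 genes did not move as 1 block. A subset of 7 (Adipoq, Lep, Cfd, Retn, Cidec, Car3 and Pck1), called the low set below, reached their summed peaks in control 3 and control 1. The name refers to mean CPM over all libraries, which for each of the 7 was below that of Plin4, Plin1 and Fabp4. Per transcript length it did not hold for Cfd, whose mean FPKM was above that of Plin1 and Fabp4. In control 3 Cfd had the highest FPKM of the 10 genes. Plin4 supplied most of the signal and was lowest in control 3, the library with the most Cfd. Plin1 followed neither pattern closely, and Fabp4 followed some of the 7, such as Retn, more closely than it followed Adipoq. The split into 7 genes and 3 was made after the values were seen and carries no test.

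Per transcript length, mean FPKM over the 10 libraries was 46.0 ± 45.1 for Plin4, 4.29 ± 7.45 for Cfd, 3.45 ± 1.73 for Plin1, 2.26 ± 2.66 for Fabp4, 1.65 ± 1.91 for Car3 and 0.699 ± 0.935 for Adipoq (SD, n = 10). It was 0.394 ± 0.407 for Retn, 0.229 ± 0.318 for Cidec, 0.0771 ± 0.114 for Pck1 and 0.0412 ± 0.0821 for Lep (SD, n = 10). The SD was about as large as the mean or larger for all but Plin1. The order is that of the means, and neighbours in it were not tested against each other within libraries. Plin4 made up 77.8% of the FPKM of the 10 genes over all libraries. By library that share was 95.4%, 16% and 38.2% in the Rar mutants, 76.0% and 86.8% in the Dmrt1 het Rar mutants, and 83.9%, 89.7%, 4.11%, 91.7% and 86.2% in controls 1 to 5.

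**Figure D1:**
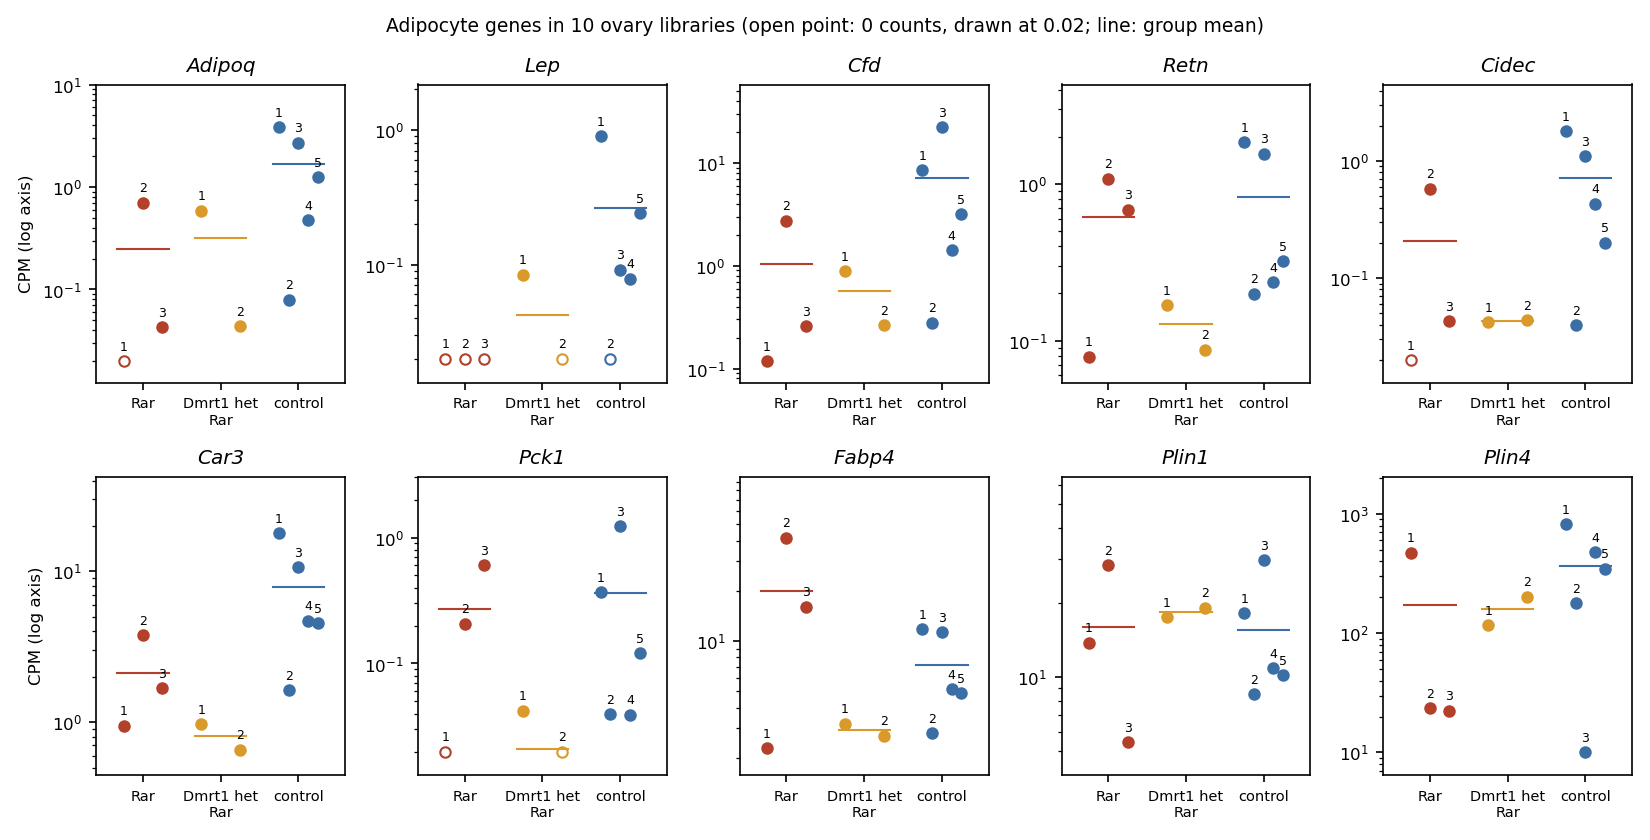
Level of each adipocyte gene in CPM (log axis) in the 3 Rar mutants (left), 2 Dmrt1 het Rar mutants (middle) and 5 controls (right). Points are libraries with their replicate number, open points are libraries with 0 counts drawn at 0.02 CPM, and lines are group means. Control 1 and control 3 are the highest pair for Adipoq, Cfd, Retn, Cidec and Car3, whereas Plin4 is lowest in control 3.

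Among the adipokines, Adipoq (ENSMUSG00000022878, chr16:23146536-23158028 in GRCm38) encodes adiponectin, a hormone made almost only by adipocytes. It had 0, 17 and 1 counts in Rar mutants 1 to 3, 14 and 1 in the Dmrt1 het Rar mutants, and 94, 2, 59, 12 and 31 in controls 1 to 5. Control 1 and control 3 were highest, control 2 was among the lowest, and the groups overlapped. Means were 0.276 ± 0.341 CPM in all Rar-deleted ovaries and 1.67 ± 1.58 CPM in controls (SD, n = 5 each).

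Cfd (ENSMUSG00000061780, chr10:79890853-79892655) encodes adipsin, the complement factor D protease released by fat. Its counts were 3, 66 and 6 in Rar mutants, 21 and 6 in Dmrt1 het Rar mutants, and 207, 7, 487, 36 and 79 in controls. Control 3 led, with more than control 1, and control 2 again sat with the low mutants. The means were 0.852 ± 1.10 CPM in the Rar-deleted set and 7.13 ± 9.04 CPM in controls (SD, n = 5 each).

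Lep (ENSMUSG00000059201, chr6:29060220-29073877), the satiety hormone leptin, had 0 counts in each Rar mutant, 2 and 0 in Dmrt1 het Rar mutants, and 22, 0, 2, 2 and 6 in controls. Of the 10 libraries, control 1 and control 5 alone exceeded 3 counts, so no fold change is given. Retn (ENSMUSG00000012705, chr8:3655770-3660110), which encodes resistin, a hormone of mouse adipocytes, had 2, 26 and 16 counts in Rar mutants, 4 and 2 in Dmrt1 het Rar mutants, and 45, 5, 34, 6 and 8 in controls. Rar mutant 2 and Rar mutant 3 came next after control 1 and control 3 for Retn, above the other 3 controls, while both Dmrt1 het Rar mutants lay below every control.

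Cidec, Car3 and Pck1 are the droplet and metabolic genes of the low set. Cidec (ENSMUSG00000030278, chr6:113424634-113435760), whose product fuses lipid droplets into a single large one, had 0, 14 and 1 counts in Rar mutants, 1 and 1 in Dmrt1 het Rar mutants, and 44, 1, 24, 11 and 5 in controls. Control 1, control 3 and Rar mutant 2 were the top libraries, and the groups overlapped at 1 count.

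Car3 (ENSMUSG00000027559, chr3:14863512-14872523), a carbonic anhydrase abundant in fat, was the best counted of the 7, with 24, 91 and 39 counts in Rar mutants, 23 and 15 in Dmrt1 het Rar mutants, and 439, 41, 233, 120 and 113 in controls. In CPM both Dmrt1 het Rar mutants lay below every control. Rar mutant 2 (3.78 CPM) and Rar mutant 3 (1.67 CPM) lay above control 2 (1.63 CPM). Means were 1.60 ± 1.27 CPM in the Rar-deleted set and 7.90 ± 6.51 CPM in controls (SD, n = 5 each).

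Pck1 (ENSMUSG00000027513, chr2:173153048-173159273), the cytosolic enzyme that feeds glycerol synthesis in fat and glucose synthesis in liver, had 0, 5 and 14 counts in Rar mutants, 1 and 0 in Dmrt1 het Rar mutants, and 9, 1, 27, 1 and 3 in controls. Control 3 led and Rar mutant 3 came second, an order not seen for Adipoq.

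Summed over these 7 genes, counts were 29, 219 and 77 in Rar mutants, 66 and 25 in Dmrt1 het Rar mutants, and 860, 57, 866, 188 and 245 in controls. The sums in CPM were 1.10 to 9.09 in Rar-deleted ovaries and 2.26 to 39.6 in controls. Control 2 lay within the Rar-deleted range, and Rar mutant 2 lay between control 4 and control 5. In these bulk samples, fewer adipocytes and less RNA per adipocyte cannot be told apart.

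Proportions among the 7 genes varied between libraries. Adipoq made up 15.7% of the Adipoq and Car3 counts in Rar mutant 2 (exact 95% interval 9.45% to 24%), 17.6% in control 1 (14.5% to 21.1%), 20.2% in control 3 (15.8% to 25.3%) and 21.5% in control 5 (15.1% to 29.1%). Those 4 intervals overlap. Dmrt1 het Rar mutant 1, at 37.8% (22.5% to 55.2%), lay above the interval of control 1 alone among the 4, and control 4, at 9.09% (4.79% to 15.3%), below that of control 3 alone. Rar mutant 3, at 2.5% (0.0633% to 13.2%), and Rar mutant 1, at 0% (0% to 14.2%), lay below the intervals of control 1, control 3 and control 5. The intervals cover counting error only, since reads without molecular identifiers are not independent molecules.

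Against Cfd, control 1 and control 3 lay further apart than against Car3. Over libraries with Adipoq counts, Cfd had 1.5 to 8.25 counts per Adipoq count and Car3 1.64 to 39, the last from 1 Adipoq count. Adipoq was 10.8% of the Adipoq and Cfd counts in control 3 (8.33% to 13.7%) and 31.2% in control 1 (26% to 36.8%), so the 2 libraries richest in the low set differed from each other beyond counting error. Rar mutant 2 (20.5%, 12.4% to 30.8%) and control 5 (28.2%, 20.02% to 37.6%) lay between them. With Retn, Adipoq was 5.88% of the joint counts in Rar mutant 3 (0.149% to 28.7%), against 79.5% in control 5 (63.5% to 90.7%).

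Plin4 (ENSMUSG00000002831, chr17:56100591-56109803) encodes perilipin 4, a coat protein of small droplets in white fat that is also made in muscle and heart. It had 12019, 563 and 523 counts in Rar mutants, 2771 and 4628 in Dmrt1 het Rar mutants, and 20114, 4506, 220, 12081 and 8659 in controls. High and low libraries occurred in both genotypes: Rar mutant 1 stood with control 4, while control 3, Rar mutant 2 and Rar mutant 3 were the lowest of the 10. Means were 168 ± 186 CPM in the Rar-deleted set and 367 ± 309 CPM in controls (SD, n = 5 each).

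Plin4 and Adipoq went their own ways. Adipoq was 21.1% of their joint counts in control 3 (exact 95% interval 16.5% to 26.4%) and 0.465% in control 1 (0.376% to 0.569%), although these libraries had similar Adipoq levels of 2.70 and 3.85 CPM. Rar mutant 1 had 12019 Plin4 counts with 0 of Adipoq.

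**Figure D2:**
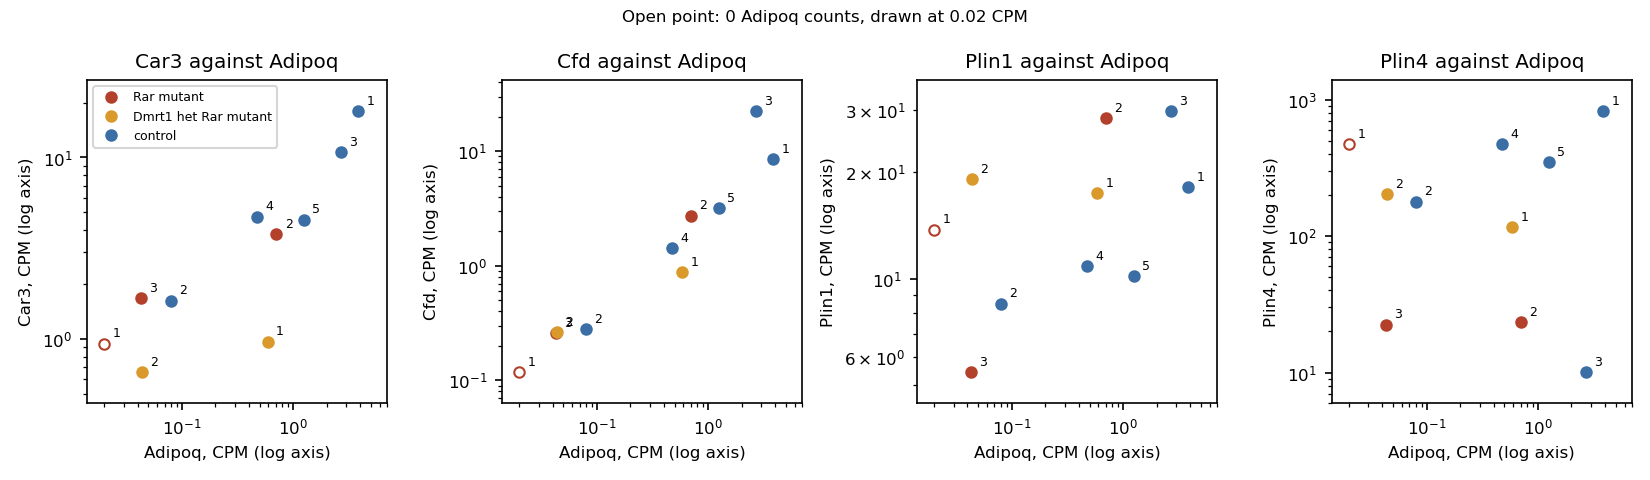
Levels of Car3, Cfd, Plin1 and Plin4 against Adipoq, all in CPM on log axes, with 1 point per library labelled by replicate number and coloured by group. Car3 and Cfd climb with Adipoq, whereas Plin4 is at both extremes in the 2 libraries with the most Adipoq, 823 CPM in control 1 and 10.1 CPM in control 3.

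Plin1 (ENSMUSG00000030546, chr7:79720218-79732903) encodes perilipin 1, the gatekeeper of droplet lipolysis in adipocytes, which steroid-making cells are also known to use. It had 350, 685 and 127 counts in Rar mutants, 415 and 436 in Dmrt1 het Rar mutants, and 443, 214, 650, 276 and 253 in controls. Rar mutant 2 and control 3 were highest and Rar mutant 3 lowest. Rar mutant 1 had 350 Plin1 counts with 0 of Adipoq, where counting error allows Adipoq at most 1.05% of the pair, against 17.5% in control 1 (14.4% to 21%). Means were 16.8 ± 8.35 CPM in the Rar-deleted set and 15.5 ± 8.79 CPM in controls (SD, n = 5 each).

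Fabp4 (ENSMUSG00000062515, chr3:10204088-10208576) encodes a fatty acid carrier of adipocytes, endothelium and macrophages. It had 58, 1005 and 374 counts in Rar mutants, 76 and 62 in Dmrt1 het Rar mutants, and 287, 71, 248, 131 and 121 in controls. Rar mutant 2 and Rar mutant 3 exceeded every control, while Rar mutant 1 lay below all of them. The 10 endothelial markers summed to 361 and 327 CPM in Rar mutants 2 and 3, within the 298 to 515 CPM of the others, and the 10 macrophage markers to 473 and 286 CPM, within the 246 to 560 CPM of the others, where Rar mutant 2 was second only to control 3. The part of these cells in the Fabp4 values was not tested.

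In the perilipin family, of which Plin1 and Plin4 are 2 of 5 genes, Plin4 and Plin5 both varied widely between libraries. Plin2, the droplet coat of most cells, had 20.8 ± 3.23 FPKM in Rar-deleted ovaries and 22.2 ± 9.33 FPKM in controls (SD, n = 5 each). Plin3, another widespread droplet protein, had 31.0 ± 6.11 FPKM in Rar-deleted ovaries and 42.4 ± 6.40 FPKM in controls. Plin5, the perilipin of oxidative tissues that ties droplets to mitochondria, had 2455, 145 and 46 counts in Rar mutants, 92 and 235 in Dmrt1 het Rar mutants, and 872, 1478, 29, 1694 and 1729 in controls. Plin5 was thus lowest in control 3 and Rar mutant 3 and highest in Rar mutant 1. Across the 10 libraries Pearson's r of log2(CPM + 1) between Plin4 and Plin5 was 0.86 (Spearman's rho 0.81), and 0.72 without Rar mutant 3 and control 3, given as a description over libraries that also share depth and dissection.

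**Figure D3:**
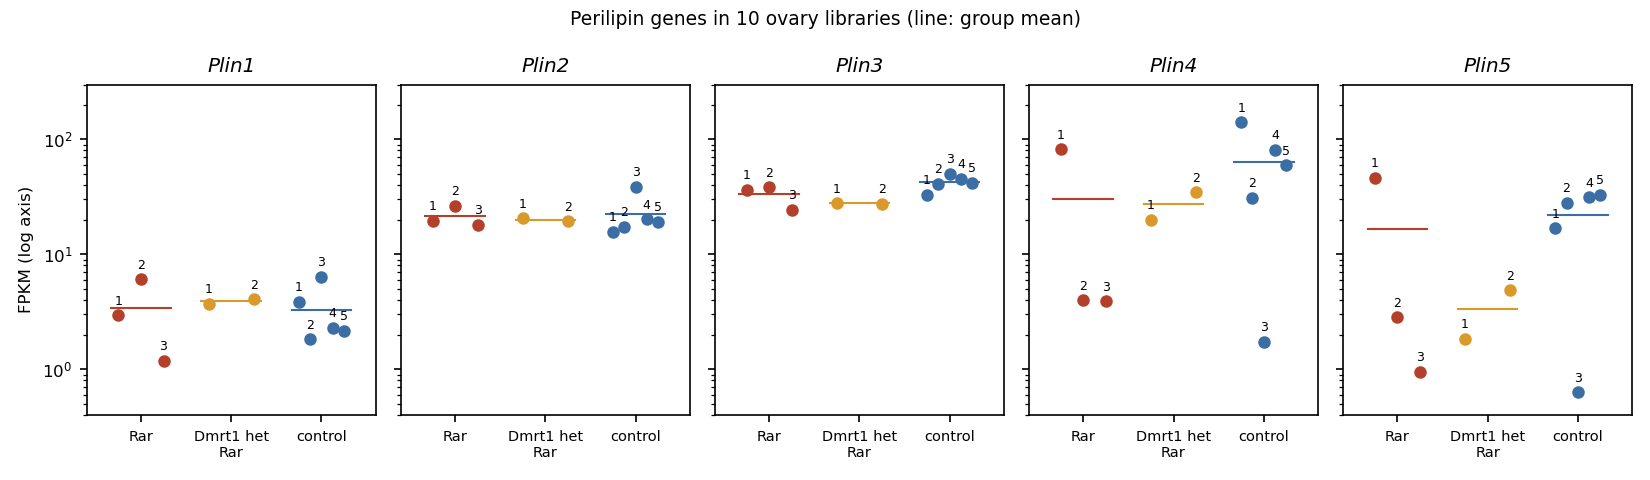
FPKM (log axis) of the 5 perilipin genes in the 3 Rar mutants (left), 2 Dmrt1 het Rar mutants (middle) and 5 controls (right). Points are libraries with their replicate number and lines are group means. Plin2 and Plin3 stay within a narrow band, whereas Plin4 and Plin5 are both lowest in control 3, at 1.73 and 0.633 FPKM.

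Erythroid and smooth muscle markers were highest in the 3 libraries where Plin4 was lowest (10.1 CPM in control 3, 23.4 CPM in Rar mutant 2 and 22.4 CPM in Rar mutant 3). The 6 erythroid markers summed to 1635 to 2705 CPM in control 3, Rar mutant 2 and Rar mutant 3, against 297 to 661 CPM in the other 7 libraries. The 8 smooth muscle markers summed to 1058 to 1141 CPM in the same 3 libraries, against 504 to 772 CPM in the other 7. Sums of the 10 endothelial markers overlapped, at 326 to 361 CPM in the 3 and 298 to 515 CPM in the other 7. So did those of the 10 macrophage markers, at 286 to 560 CPM and 246 to 444 CPM. The part of these cells in the Plin4 values was not tested. Plin4 also had more company across the transcriptome than Adipoq: of 16654 genes with a mean of at least 1 CPM, 268 had r of at least 0.8 with Plin4 and 240 had r of -0.8 or less, 3.05% together, against 14 and 9 of 16655 genes, or 0.138%, for Adipoq. Pck1 came next at 2.21%, and the other 7 genes were at 0.0901% to 0.697%.

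Correlations among the 10 genes are given as descriptions over 10 libraries. Over the 21 pairs within the low set, r ran from 0.17 (Lep with Pck1) to 0.95 (Cidec with Car3), with a median of 0.80. The set was formed after its peaks in control 1 and control 3 were seen, so high r within it was partly built in. Without those 2 libraries, Pck1 had r = -0.04 with Adipoq, 0.04 with Cfd, 0.07 with Cidec and 0.18 with Car3. Retn with Pck1 kept 0.73 and Cidec with Car3 0.82. Adipoq had r = 0.94 with Cfd (rho 0.98) and 0.92 with Car3 (rho 0.79), and still 0.95 and 0.72 without control 1 and control 3, the libraries farthest from its median. With Retn, r = 0.81 became 0.31 without those libraries. Adipoq had r = -0.01 with Plin4, 0.50 with Plin1 and 0.39 with Fabp4. Fabp4 had r = 0.78 with Retn (rho 0.88), 0.57 with Pck1 (rho 0.81) and 0.50 with Car3 (rho 0.68). Without Rar mutant 2 and Rar mutant 3, the libraries farthest from the median of Fabp4, these r were 0.96, 0.83 and 0.97. With Lep, Cfd and Cidec, Fabp4 had r = 0.15, 0.47 and 0.54 over all 10 libraries. Over its 9 pairs Plin4 had a median r of -0.25, from -0.69 with Pck1 to 0.47 with Lep.

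Variation among controls alone was wide. The SD of log2(CPM + 1) over the 5 controls was 2.44 for Plin4, exceeded by 4 of 16655 genes with a mean of at least 1 CPM. For Cfd it was 1.64, exceeded by 27 genes, and for Car3 1.10, exceeded by 122. It was 0.75 for Fabp4 (450 genes above) and 0.69 for Plin1 (608 genes above), against a median of 0.25 over all 16655 genes. The 5 remaining members had a mean below 1 CPM and were not ranked. In the 5 Rar-deleted ovaries the SD was 1.91 for Plin4 and 1.64 for Fabp4, exceeded by 37 and 66 genes. There Cfd had an SD of 0.72 (1132 genes above), Car3 0.61 (1745 genes above) and Plin1 0.81 (779 genes above).

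Comparing all 5 Rar-deleted ovaries with 5 controls, edgeR's quasi-likelihood test with Benjamini-Hochberg adjustment over all genes called 0 of the 6 members tested, against a background of 0.111% of 18954 genes called. The unadjusted p was under 0.05 for 3 members, Car3, Cfd and Adipoq, against 8.47% of all genes tested. DESeq2 called 1, Car3, against 0.745% of the 24145 genes to which it gave an adjusted p. Lep, Cidec, Retn and Pck1 did not pass the low-count filter. Log2 fold changes were -2.57 for Adipoq (SE 1.01, adjusted p = 0.557), -3.05 for Cfd (SE 1.07, adjusted p = 0.527) and -2.30 for Car3 (SE 0.64, adjusted p = 0.380). DESeq2 gave Car3 -2.30 with an adjusted p of 0.0201. For Plin4 the value was -1.13 (SE 0.98, adjusted p = 0.696), for Plin1 0.12 (SE 0.43, adjusted p = 0.933) and for Fabp4 0.87 (SE 0.78, adjusted p = 0.702). The median over the 6 tested members was -1.71, and over all genes 0.00.

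Single libraries bore on these values. Without control 1 the log2 fold change of Car3 was -1.74 and that of Adipoq -1.99, and without control 3 that of Cfd was -1.98. Plin4 was at -0.58 without control 1 and -1.9996 without Rar mutant 1. Fabp4 turned to -0.24 without Rar mutant 2. The library titles carry numbers that fall into a set under 7800 (Rar mutant 1, both Dmrt1 het Rar mutants and control 1) and a set from 7800 up. Among the 6 libraries of the higher set, with 2 Rar mutants and 4 controls, the log2 fold changes were -1.55 for Adipoq (SE 1.32), -2.16 for Cfd (SE 1.79) and -0.98 for Car3 (SE 0.71), with 0 members called. Those of Plin4 and Fabp4 were larger there than over all libraries, at -3.47 (SE 1.40) and 2.26 (SE 0.55). The lower set has 1 control and gives no value of its own.

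**Figure D4:**
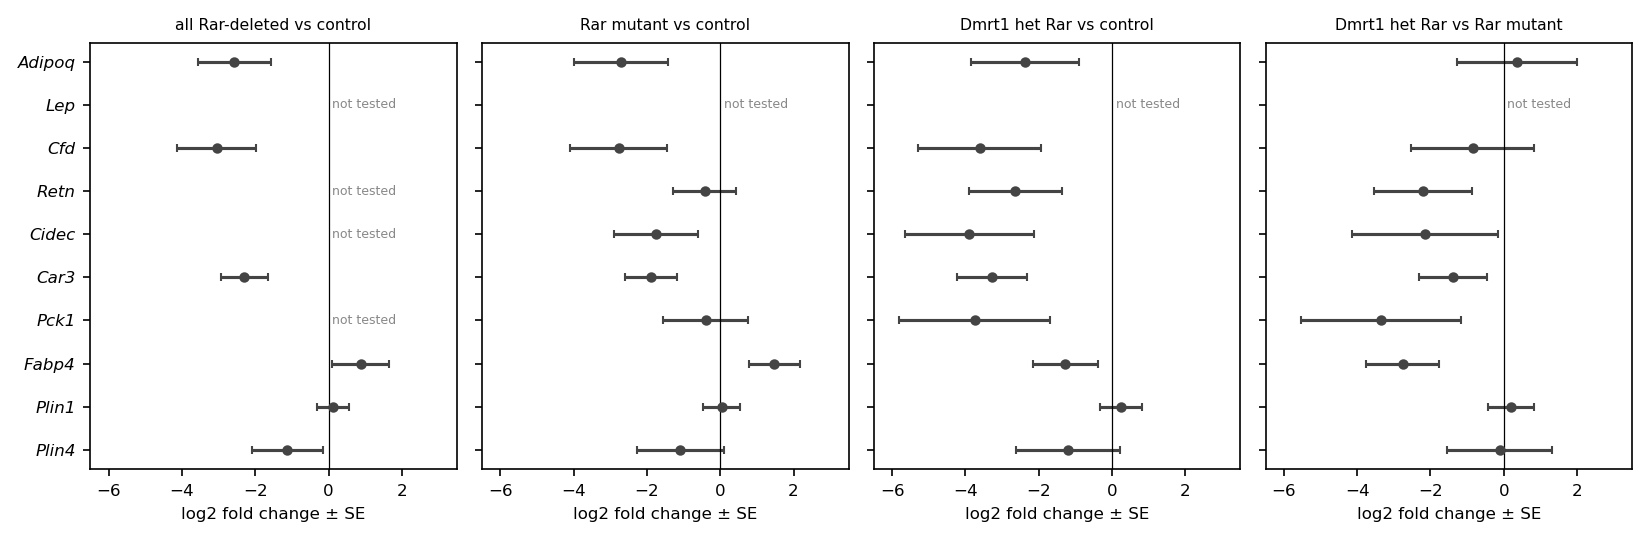
Log2 fold change (points) with its SE (bars) for each adipocyte gene that passed the low-count filter, in the 4 comparisons, each named with its first group over its second. Negative values are lower in the group named first. The bars of Cfd, Car3 and Adipoq stay below 0 in the 3 comparisons with controls, and 0 members were called in any of the 4.

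Comparing Rar mutants with controls, in a fit of 3 groups, 0 of 9 tested members were called by edgeR or DESeq2, against 0.00972% of 20570 genes by edgeR and 1.74% of 21334 by DESeq2. Car3 alone was at an unadjusted p under 0.05, against 9.45% of all genes. Car3 had 2.13 ± 1.47 CPM in Rar mutants (n = 3) and 7.90 ± 6.51 CPM in controls (n = 5), or -1.89 on the log2 scale (SE 0.72, adjusted p = 0.413). Adipoq was at -2.72 (SE 1.28, adjusted p = 0.548), Cfd at -2.77 (SE 1.32, adjusted p = 0.553) and Cidec at -1.75 (SE 1.15, adjusted p = 0.711). Retn was at -0.43 (SE 0.87), Pck1 at -0.40 (SE 1.15), Plin4 at -1.09 (SE 1.20) and Plin1 at 0.04 (SE 0.51). Fabp4 had the opposite sign, 20.01 ± 20.01 CPM in Rar mutants and 7.19 ± 4.08 CPM in controls, at 1.48 (SE 0.69, adjusted p = 0.542). The median over the 9 was -1.09, and over all genes -0.02. In the libraries numbered 7800 and over, Retn was at 0.64 and Pck1 at 0.22. Without Rar mutant 2 the remaining Rar mutants had 0 and 1 counts of Adipoq, and likewise of Cidec. Their fitted fold changes there hang on the prior count and are not quoted. Cfd, with 3 and 6 counts left, was at -5.22 (SE 1.74) without Rar mutant 2. Cfd was at -1.70 without control 3 and Cidec at -1.05 without control 1. Plin4 was at -4.00 without Rar mutant 1, and at -0.55 without control 1.

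Between Dmrt1 het Rar mutants and controls edgeR called 0 of 9 members, against 0.0194% of 20570 genes, with unadjusted p under 0.05 for Car3 and Cidec, 2 of 9 against 17.3% of all genes. A DESeq2 fit called 1, Car3, against 1.78% of 18521 genes. Car3 had 0.812 ± 0.219 CPM in Dmrt1 het Rar mutants (n = 2) and 7.90 ± 6.51 CPM in controls (n = 5), or -3.27 on the log2 scale (SE 0.95, edgeR adjusted p = 0.243, DESeq2 adjusted p = 0.00369). Some markers of other tissues were also lower there. The 9 mesothelium and surface epithelium markers summed to 214 to 238 CPM in Dmrt1 het Rar mutants and 302 to 599 CPM in controls, with 9 of 9 negative, 8 at an unadjusted edgeR p below 0.05, a median log2 fold change of -0.99 and DESeq2 calls for Krt7, Krt18, Krt19 and Msln. The 7 oviduct and ciliated epithelium markers summed to 36.3 to 37.1 CPM in Dmrt1 het Rar mutants and 54.7 to 116 CPM in controls. Of these only 4 of 7 were negative, with a median of -0.98. Their part in the Car3 values was not tested. Retn was at -2.64 (SE 1.27, adjusted p = 0.305), Cfd at -3.61 (SE 1.68, adjusted p = 0.295) and Adipoq at -2.37 (SE 1.47, adjusted p = 0.395). Cidec and Pck1 rest on 2 counts and 1 count in the Dmrt1 het Rar mutants, so their fitted fold changes hang on the prior count and are not quoted. Fabp4 was at -1.28 (SE 0.89), Plin4 at -1.20 (SE 1.41) and Plin1 at 0.24 (SE 0.57). The median over the 9 was -2.64, and over all genes -0.02. Both Dmrt1 het Rar mutants have title numbers under 7800, and with that split as a term in the fit Car3 was at -3.73 (SE 1.08, adjusted p = 0.684). These 3 comparisons share their controls, so their values are not independent.

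Between Dmrt1 het Rar mutants and Rar mutants, Fabp4 had the smallest p of the 9 members tested, with 2.96 ± 0.337 CPM in Dmrt1 het Rar mutants (n = 2) and 20.01 ± 20.01 CPM in Rar mutants (n = 3), or -2.76 on the log2 scale (SE 1.00, adjusted p = 0.243). The edgeR test called 0 of 9 members here, against 0% of 20570 genes, with an unadjusted p under 0.05 for Fabp4 alone (16.9% of all genes), and DESeq2 called 0, against 3.66% of 17114 genes. Without Rar mutant 2, Fabp4 was at -1.63. Car3 was at -1.38 (SE 0.94), Retn at -2.21 (SE 1.34), Adipoq at 0.35 (SE 1.64), Cfd at -0.84 (SE 1.67), Plin4 at -0.12 (SE 1.44) and Plin1 at 0.20 (SE 0.63). Cidec and Pck1 are again not quoted, for their low counts. The median over the 9 was -1.38, and over all genes -0.01.

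Beyond the 10, 63 of 66 further adipocyte genes in 6 lists were matched by symbol, and 0 were called in any comparison by edgeR. At an unadjusted p below 0.05 stood 7 of 53 tested in the pooled comparison, 9 of 55 for Rar mutants and 15 of 55 for Dmrt1 het Rar mutants against controls, and 15 of 55 between the mutant groups, where the shares over all genes were 8.47%, 9.45%, 17.3% and 16.9%. DESeq2 called 0, 1 (Abhd5, higher), 0 and 7 of them in these 4 comparisons, against 0.745%, 1.74%, 1.78% and 3.66% of all genes with an adjusted p. In the pooled comparison 2 of 9 tested lipid droplet and lipolysis genes had an unadjusted p under 0.05, with Plin3 at -0.45 (SE 0.16) and Abhd5, the coactivator of adipose triglyceride lipase, at 0.41 (SE 0.15), followed by the monoglyceride lipase Mgll at -0.39 (SE 0.22). Of 12 genes of lipid uptake and triglyceride synthesis 1 did, the diglyceride acyltransferase Dgat2 at -0.68 (SE 0.29). Of 12 fatty acid synthesis genes Thrsp did, at -1.09 (SE 0.41), while the desaturase Scd1 was at 0.81 (SE 0.39) and Acly, which makes cytosolic acetyl-CoA, at 0.54 (SE 0.31). None of 7 adipocyte transcription factor genes did, with Cebpd at 0.86 (SE 0.51) and Pparg, the main regulator of fat cell formation and also a gene of granulosa cells, at 0.40 (SE 0.28). Among 11 adipokine and adipocyte-enriched genes 3 did: Nampt at 0.49 (SE 0.14), Retsat at -0.51 (SE 0.22) and Mest at -0.55 (SE 0.25). Of 2 tested brown and beige fat genes neither did, with Cox7a1 at -1.09 (SE 0.52) and Dio2 at 0.79 (SE 0.49). The list medians were -0.10, 0.05, 0.09, 0.20, -0.20 and -0.15 in this order, against 0.00 over all genes.

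Some genes of these lists were counted as sparsely as the least counted of the low set, such as Lep and Pck1. They were picked out after their values were seen. Adrb3, the adrenergic receptor of mouse adipocytes, had 0, 1 and 3 counts in Rar mutants, 0 and 2 in Dmrt1 het Rar mutants, and 9, 0, 15, 5 and 6 in controls. Adig, a small adipocyte protein gene, had 23 counts in control 3 and at most 4 elsewhere. Both were highest in control 3. Pparg, by contrast, had 1098, 1229 and 2904 counts in Rar mutants, 1426 and 1136 in Dmrt1 het Rar mutants, and 1401, 878, 1037, 1645 and 1129 in controls, so it was plentiful where Adipoq was at 0 or 1 count.

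The 15 genes most like the mean standardised level of the 10 across libraries, among 16655 genes with a mean of at least 1 CPM, were Cbx3-ps6, Gm43632, Pigu, AI987944, Dkk2, Lrrc3, Gm7721, Slc2a10, Zfp87, Tspan14, Ccnb2-ps, Bbs4, Ear2, Cpq and 2810454H06Rik. Their r ran from 0.86 to 0.78 over 10 libraries, and 0 of them are in the adipocyte lists. Cbx3-ps6 had r = 0.86 (rho 0.50), and 0.13 without control 1 and control 3, the libraries farthest from the median of the mean level. Pigu kept 0.83 (rho 0.79 over all 10) and Lrrc3 0.91 (rho 0.94 over all 10) without them. Ccnb2-ps turned to -0.14.

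The authors' deposited table of differential expression lists 185 genes, where the deposited counts hold 24306. Among the 185 are 0 of the 10 members and 0 of the 63 further adipocyte genes. At so small a share, 0 of so few genes says nothing particular to adipocyte genes.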

How the data were processed

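Raw counts per gene and FPKM were used as the authors deposited them, for 10 ovary libraries. Per the submitters' processing notes, Trimmomatic 0.32, STAR 2.4.2a, SAMtools 1.0 and DESeq2 1.12.3 were used with GRCm38 (mm10). How reads were counted, and on which annotation, is not given in the sources used here. Deposited FPKM values were scaled by median-of-ratios size factors, to within 0.0698% over 12411 genes.

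For tests on counts, edgeR 4.0.16 in R 4.3.3 was run with TMM, filterByExpr and robust quasi-likelihood fits. A call is a two-sided p under 0.05 after Benjamini-Hochberg adjustment over all genes tested. The SE is the size of the log2 fold change over the square root of its F. The pooled comparison came from a 2-group fit and the others from a 3-group fit that shares 1 estimate of the spread. Nothing in the labels says that libraries of a group came from separate animals, so p-values measure the spread between these samples. The tests were checked on simulated counts. Alternatives were DESeq2 1.42.0, RLE scaling, no low-count filter, the title-number split, the replicate number as a block, the 2 groups alone and leaving out each library. No 2 libraries of a group were duplicates. FPKM described levels and was not tested.

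The authors' deposited table of their comparison, used here only for which genes it lists, gives log2 fold changes with a standard error and Wald score, p-values, and a mean signal per gene, per the file headers. Gene positions are from GENCODE M21. The 10 genes, the adipocyte lists and the marker lists were chosen with earlier results of these data known. All 10 members are named; of the other adipocyte genes those with the smallest p in each list (up to 3 a list), and of all genes the 15 most like the members' mean level. Of 96 markers of other cells in 11 lists, 90 were matched. In the 4 comparisons (pooled, Rar mutants, Dmrt1 het Rar mutants, and the mutant groups with each other) edgeR called 0 of them, against at most 0.111% of all genes. DESeq2 called 3, 5, 7 and 10, against 0.745%, 1.74%, 1.78% and 3.66% of all genes with an adjusted p. Of the 79, 84, 84 and 84 that edgeR tested, 11, 18, 17 and 24 had an unadjusted p below 0.05. The shares over all genes were 8.47%, 9.45%, 17.3% and 16.9%.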

Additional observations from a re-analysis of the deposited data

Results flagged for a closer look

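Among 20 checks of single libraries (each of the 10 genes within the 5 Rar-deleted ovaries and within the 5 controls), 4 found a library whose gap to its nearest neighbour was over 0.71 of the group's range. The rate of about 1 in 20 that chance gives holds for normal values, not for sparse counts with ties at 0 such as these, so the number of such libraries is not read against it. Cidec in Rar mutant 2 was at 0.581 CPM, with the next Rar-deleted ovary at 0.0438 CPM. Lep in Dmrt1 het Rar mutant 1 was at 0.0841 CPM, from 2 counts, with the other 4 Rar-deleted ovaries at 0, a difference within the 3 counts that a 0 allows. Lep in control 1 was at 0.900 CPM, with the next control at 0.241 CPM. Pck1 in control 3 was at 1.24 CPM, with the next control at 0.368 CPM. The cause was not tested. Adipoq, Cfd, Retn and Car3, whose highest controls were also control 1 and control 3, gave no such gap.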

How the results depend on the processing

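Members called were 0 in all 4 comparisons under every alternative except DESeq2, which called 1 (Car3) in the pooled comparison, where its log2 fold change was -2.30, and 1 (Car3) between Dmrt1 het Rar mutants and controls, where it was -3.28. The range without each library in turn was 0 to 0. The number of genes called overall moved much more. The main values were 21 (all Rar-deleted ovaries), 2 (Rar mutants) and 4 (Dmrt1 het Rar mutants) against controls, and 0 between the mutant groups. DESeq2 gave 180, 372, 329 and 626. The title-number term gave 40, 85 and 1 for the 3 comparisons with controls, and the libraries numbered 7800 and over alone gave 142 for the first and the second. The second gave 1 in a fit of the 2 groups alone. Leaving out each library gave 5 to 52, 1 to 384, 0 to 364 and 0 to 335: the highest values came without control 1 (52 and 364) and without Rar mutant 1 (384 and 335).

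Libraries of different groups with the same replicate number in their titles had r of -0.087 to 0.435. No r of differently numbered libraries is given beside these, so they do not settle whether the numbers pair the libraries. With the replicate block 0 genes were called in the pooled comparison and 0 for Dmrt1 het Rar mutants against controls, and these log2 fold changes changed sign: Plin1 -0.26 and Fabp4 -0.0085 in the pooled comparison, Plin1 -0.34 (Rar mutants) and -0.12 (Dmrt1 het Rar mutants) against controls, and Adipoq -0.15 and Plin4 0.11 between the mutant groups. Among libraries numbered 7800 and over, Retn (0.64) and Pck1 (0.22) changed sign for Rar mutants, and with the title-number term Adipoq (-0.30) did between the mutant groups.

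Leaving out single libraries changed signs too: in the pooled comparison for Plin1 (-0.15 to 0.50) and Fabp4 (-0.24 to 1.15), for Rar mutants against controls for Plin1 (-0.68 to 0.44), Retn (-1.12 to 0.11) and Pck1 (-0.69 to 0.20), and between the mutant groups for Adipoq (-2.37 to 3.65), Plin1 (-0.19 to 0.93), Plin4 (-0.64 to 2.80), Cfd (-1.95 to 1.60) and Cidec (-2.73 to 0.90). The cause was not tested. Of the members' recomputed fold changes 498 kept their direction and side of the threshold, 27 changed sign and 2 became called. The 498 say little of stability, since edgeR called 0 members under every setting and size was not judged. Plin4 in the pooled comparison counted among them, at -1.13 in the main fit and -3.47 among libraries numbered 7800 and over. Adipoq, Cfd and Car3 were negative against controls under every alternative run. Lep, Cidec and Pck1, with 0 to 3 counts in many libraries, are limited by depth. So is Adipoq, at 0 and 1 counts in Rar mutants 1 and 3.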
